A study of Mus musculus with 4 samples.

Results

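The 40 genes described here build ribosomes: 39 encode nucleolar proteins, snoRNA-protein subunits, RNA polymerase I subunits and assembly factors, and the other is Myc. They were chosen by gene name for that function, with earlier results of these data known, and all 40 were found among the 23997 gene symbols of an expression table of mouse follicular helper T (Tfh) cells. The table holds 4 RNA-sequencing libraries of Tfh cells from lymph nodes and spleens of 13-week-old C57BL/6 mice, 2 from wild-type (WT) mice and 2 from Apoe-/- mice (labelled Apoe-KO), which lack apolipoprotein E, have raised plasma cholesterol and develop atherosclerosis. No diet or treatment is given in the labels, nor how the cells were sorted or whether a replicate is 1 animal or a pool, so a p-value here reflects the spread between libraries alone, and that spread may be technical.

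Ribosomes are made mainly in the nucleolus. RNA polymerase I transcribes a long precursor rRNA, snoRNA-protein particles modify its nucleotides, and successive assembly factors cut, fold and export the small and the large subunit. The transcription factor MYC, with its partner MAX, binds genes of all these steps and raises their transcription when T cells are activated and grow. Tfh cells are CD4+ T cells that give B cells help in the germinal centre.

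The deposited values are FPKM, the fragments per kilobase of transcript scaled to each library's mapped fragments, so levels of different genes can be compared per length. FPKM totals were 522371 to 551289 per library and 11084 to 11251 genes reached an FPKM of 1. Read depth is unknown. Apoe itself was at 145 and 128 FPKM in WT and 5.09 and 5.21 FPKM in Apoe-KO libraries. The Tfh genes Cd3e (281 to 315 FPKM over the 4 libraries), Cxcr5 (162 to 223), Bcl6 (94.1 to 116) and Pdcd1 (179 to 283) were high, and of 10 Tfh genes 0 passed the test described below. Both Apoe-KO libraries lay above both WT libraries for 3 of the 10 (30.0%, against 27.5% of all tested genes). Cxcr5 was among them (176 and 162 FPKM in WT, 223 and 204 in Apoe-KO). They lay below for 2 (20.0%, against 22.9%), with Pdcd1 at 283 and 260 FPKM in WT and 203 and 179 in Apoe-KO libraries. Transcripts of other cells were present too, and several lists of their markers differed between genotypes. The FPKM of 10 B cell markers summed to 340 and 343 in WT and 202 and 210 in Apoe-KO libraries. Among them Cd79a, on chromosome 7 at 5.2 Mb from Apoe, was at 98.3 and 88.6 against 69.6 and 59.0 FPKM. Fcer2a, on chromosome 8, was at 16.9 and 16.4 against 6.53 and 6.44 FPKM. The FPKM of 6 neutrophil markers summed to 7.93 and 9.79 in WT against 51.4 and 67.9 in Apoe-KO libraries, and that of 10 macrophage and monocyte markers to 187 and 211 against 241 and 261. That of 6 dendritic cell markers summed to 7.73 and 8.20 against 16.6 and 17.7, and that of 9 CD8 T and NK cell markers to 19.1 and 20.6 against 28.0 and 36.9. The lists were not uniform, as 2 of 10 macrophage and monocyte and 1 of 7 tested CD8 T and NK cell markers had a lower mean in Apoe-KO libraries. Sums of 7 germinal centre B cell markers overlapped between genotypes (76.1 and 80.0 against 74.8 and 82.6). Those of 6 plasma cell markers were 117 and 127 against 108 and 104, but Igj rose (8.80 and 11.6 against 26.4 and 28.0 FPKM). Of these markers only Vsig4 was listed at 0 in any library. By the limma test described below, 4 of the B cell markers passed as lower in Apoe-KO libraries (0.885% of all tested genes did). As higher, 4 neutrophil, 1 macrophage and monocyte, 1 dendritic cell and 1 plasma cell marker (Igj) passed (0.948% of all tested genes did). Of the CD8 T and NK cell markers and of the germinal centre B cell markers 0 passed. Since the samples are bulk RNA, fewer cells of a type and less RNA per cell cannot be told apart, and the part of these other cells in the results below was not tested.

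None of the 40 genes passed the test between the genotypes, and more of them had a lower than a higher mean in Apoe-KO cells. By limma on log2(FPKM + 1), with Benjamini-Hochberg adjustment over the 11187 genes whose mean FPKM reached 1, 0 of the 40 genes passed in either direction at the threshold of 0.05, where 0.948% of all tested genes were called higher and 0.885% lower. At an unadjusted p under 0.05, 4 genes were lower (against 8.27% of all tested genes) and 0 were higher (against 11.6%). The 4 were Gnl3, Dkc1, Nop56 and Tsr1. The difference (Apoe-KO minus WT) was below 0 for 28 of 40 genes, or 70.0%, against 50% of all tested genes, and the median of the 40 was -0.095 against 0.00. The values of both Apoe-KO libraries lay below both WT libraries for 14 genes (35.0%, against 22.9% of all tested genes) and above them for 3 (7.5%, against 27.5%). Proliferation genes, which many cells raise together with ribosome production, had 20 of 20 differences below 0 and a median of -0.20, with 0 passing by limma and 5 lower at an unadjusted p under 0.05. Their part in the ribosome biogenesis values was not tested.

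The absence of calls does not show that the genes were equal. The 95% intervals of the 40 differences ran from -1.01 to 0.43 at their extremes. They excluded a log2 difference of 1 in either direction for 39 genes, Gnl3 being the exception, and a difference of 0.5 in either direction for 29. Adjusted p-values ran from 0.102 to 0.985.

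**Figure D1:**
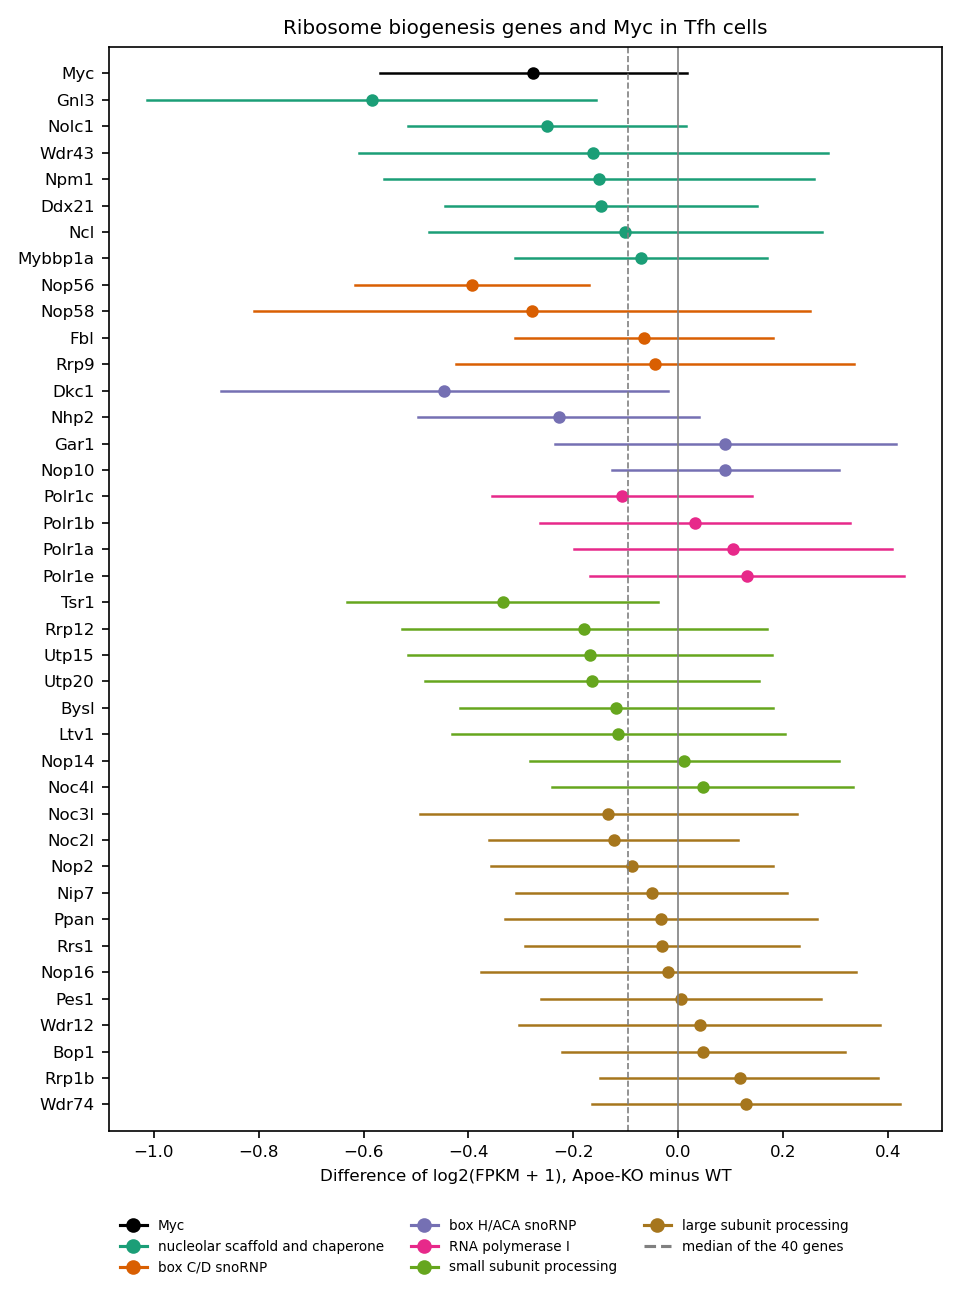
Difference of log2(FPKM + 1) between Apoe-KO and WT cells for each of the 40 genes, grouped by role; circles are the differences of group means over 2 libraries each and lines their 95% intervals from limma. The dashed line is the median of -0.095, and only Gnl3, Nop56, Dkc1 and Tsr1 have intervals that lie wholly below 0.

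Myc, the transcription factor of the set, lies on chromosome 15 at 61985341 to 61990361 (GRCm38). It was at 27.6 and 25.1 FPKM in the WT libraries and 22.9 and 20.4 FPKM in the Apoe-KO libraries. Both Apoe-KO values were below both WT values. The means were 26.4 ± 1.79 and 21.6 ± 1.8 FPKM (SD, n = 2 each). The log2 difference was -0.28 ± 0.12 SE (95% interval -0.57 to 0.02, limma adjusted p = 0.273), and it did not pass.

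Among 7 nucleolar scaffold and chaperone genes all 7 differences were below 0, with a median of -0.15, and 0 passed. Gnl3 encodes nucleostemin, a nucleolar GTPase of proliferating cells, on chromosome 14 at 31012433 to 31019131. It was at 36.1 and 44.8 FPKM in WT and 23.3 and 30.1 FPKM in Apoe-KO libraries. Both Apoe-KO libraries lay below both WT libraries, and the replicates of each genotype spread widely. Its log2 difference of -0.58 ± 0.17 SE was the greatest in size of the 40 genes (95% interval -1.01 to -0.16, adjusted p = 0.153). It was the only one of the 40 to pass when 1 library was left out: without Apoe-KO replicate 2 its difference was -0.76 (adjusted p = 0.0264), while without Apoe-KO replicate 1 it was -0.41 (0.342). Nolc1 encodes a chaperone that brings snoRNA-protein particles to the nucleolus. It was at 24.8 and 24.7 FPKM in WT and 19.7 and 21.6 FPKM in Apoe-KO libraries, again without overlap (log2 difference -0.25, adjusted p = 0.271).

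Npm1, the gene of nucleophosmin, a chaperone of ribosome assembly and export, had the highest level of the set. It was at 378 and 469 FPKM in WT and 334 and 430 FPKM in Apoe-KO libraries. The groups overlapped (log2 difference -0.15, adjusted p = 0.648). Ncl encodes nucleolin, which acts in rRNA transcription and processing, and was at 89.0 and 110 FPKM in WT and 84.3 and 101 FPKM in Apoe-KO libraries, again with overlap (-0.10, adjusted p = 0.751). Ddx21, an RNA helicase of rRNA synthesis, was at 64.4 and 71.7 FPKM against 57.0 and 65.9 FPKM (-0.15). Wdr43, an early processing factor, was at 38.5 and 44.4 FPKM against 31.3 and 43.4 FPKM (-0.16). Both overlapped between genotypes as well. Mybbp1a, a nucleolar protein that binds the MYB family of transcription factors, did not overlap, but its values of 36.2 and 35.3 FPKM and of 34.3 and 33.6 FPKM were close (-0.07, adjusted p = 0.720).

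**Figure D2:**
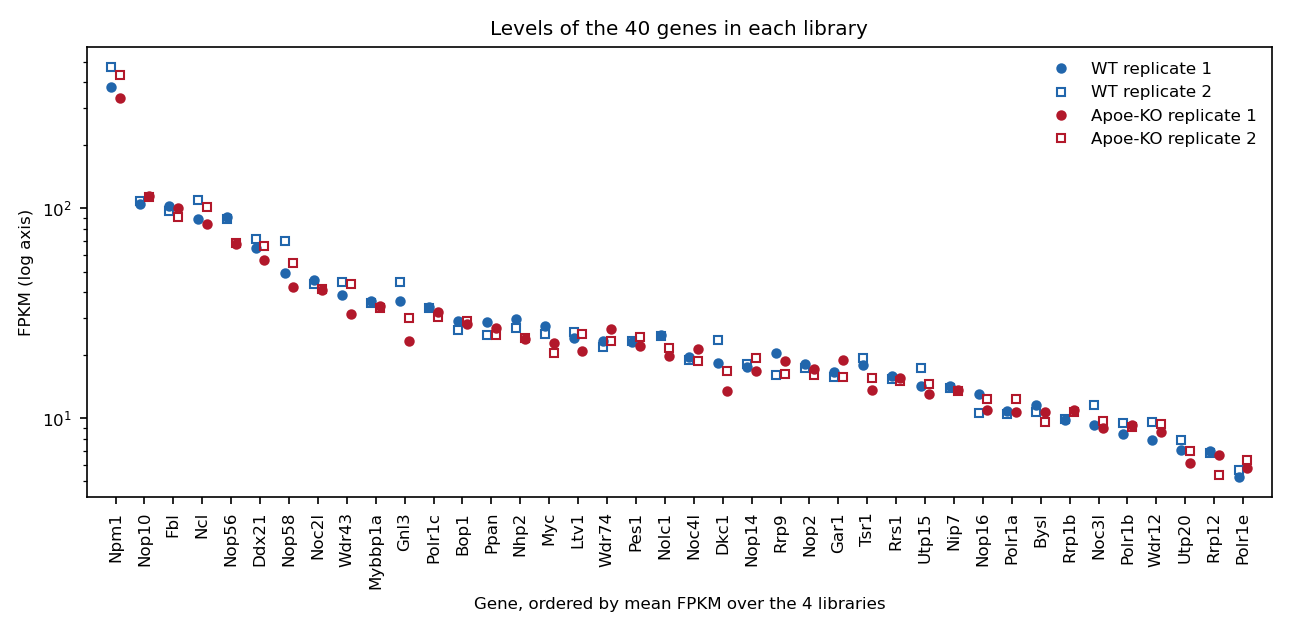
FPKM of the 40 genes in each of the 4 libraries on a log axis, ordered by mean level; WT is blue, Apoe-KO red, filled circles are replicate 1 and open squares replicate 2. Npm1 stands at 334 to 469 FPKM, the next 4 genes at 67.8 to 114 FPKM, and Polr1e is lowest at 5.25 to 6.33 FPKM.

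The box C/D particle, which methylates rRNA at sites chosen by its snoRNA, is formed by the methyltransferase fibrillarin (Fbl) and the scaffold proteins Nop56 and Nop58. Nop56, on chromosome 2 at 130274367 to 130279313, was at 90.6 and 89.2 FPKM in WT and 67.8 and 68.6 FPKM in Apoe-KO libraries. The replicates of each genotype were close together and the genotypes lay apart. The log2 difference was -0.39 ± 0.09 SE (95% interval -0.62 to -0.17), and its adjusted p of 0.102 was the lowest of the 40 genes and still above the threshold. Nop58 was at 49.0 and 69.9 FPKM in WT and 42.0 and 55.1 FPKM in Apoe-KO libraries, so the groups overlapped (-0.28 ± 0.21 SE, adjusted p = 0.520). Its difference rested on single libraries, being -0.027 without WT replicate 2, -0.087 without Apoe-KO replicate 1, -0.47 without Apoe-KO replicate 2 and -0.53 without WT replicate 1. Fbl was at 103 and 97.1 FPKM in WT and 99.9 and 91.4 FPKM in Apoe-KO libraries (-0.06, adjusted p = 0.755). It is the only one of the 40 genes on chromosome 7, 8.47 Mb from Apoe. Rrp9, which binds the snoRNA of the small-subunit processing complex, was at 20.4 and 16.1 FPKM against 18.8 and 16.3 FPKM (-0.04), with overlap. The ratio of Nop56 to Fbl, which does not depend on how a library is scaled, was 0.879 and 0.919 in WT and 0.679 and 0.750 in Apoe-KO libraries. That ratio did not overlap between the genotypes, whereas the ratio of Nop58 to Fbl did (0.476 and 0.720 against 0.420 and 0.602).

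The box H/ACA particle, which converts uridine to pseudouridine in rRNA, has 4 core proteins, and their genes did not share a direction. Dkc1 encodes dyskerin, the pseudouridine synthase, on chromosome X at 75095854 to 75109776. It was at 18.3 and 23.6 FPKM in WT and 13.5 and 16.7 FPKM in Apoe-KO libraries. The genotypes did not overlap, though the replicates of each spread widely (log2 difference -0.45 ± 0.17 SE, 95% interval -0.87 to -0.02, adjusted p = 0.236). Nhp2, an RNA-binding core protein, was at 29.8 and 26.9 FPKM in WT and 23.8 and 24.2 FPKM in Apoe-KO libraries, also without overlap (-0.23, adjusted p = 0.313). Nop10, the smallest core protein, was at 105 and 108 FPKM against 114 and 113 FPKM, higher in both Apoe-KO libraries (0.09, adjusted p = 0.608). Gar1 was at 16.6 and 15.8 FPKM against 19.0 and 15.7 FPKM, with overlap (0.09). The ratio of Dkc1 to Nop10 was 0.174 and 0.219 in WT and 0.118 and 0.148 in Apoe-KO libraries, and that of Dkc1 to Gar1 was 1.10 and 1.49 against 0.709 and 1.06. Neither ratio overlapped between the genotypes, nor did that of Nhp2 to Nop10 (0.283 and 0.250 against 0.209 and 0.215). These ratios were chosen after the values of single genes were seen and were not tested.

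The genes of RNA polymerase I, which transcribes rRNA, had a median difference of 0.07, with 1 of 4 below 0. Polr1a, the largest catalytic subunit, was at 10.8 and 10.5 FPKM in WT and 10.7 and 12.4 FPKM in Apoe-KO libraries. Polr1b, the second catalytic subunit, was at 8.39 and 9.51 FPKM against 9.23 and 9.10 FPKM. In both the groups overlapped (log2 differences 0.10 and 0.03, the latter -0.01 with every library scaled to one FPKM total). Polr1c, a subunit shared with RNA polymerase III, was at 34.0 and 33.4 FPKM against 32.1 and 30.3 FPKM, lower in both Apoe-KO libraries (-0.11, adjusted p = 0.593). Polr1e, which helps the enzyme start transcription and was the least abundant of the 40, was at 5.25 and 5.67 FPKM against 5.82 and 6.33 FPKM, higher in both (0.13, adjusted p = 0.590). Of 16 further genes of the polymerase and its initiation factors, all tested, 0 passed, 11 were below 0 and the median was -0.04. The largest differences were those of Cd3eap, the gene of subunit POLR1G, at 5.94 and 5.82 FPKM against 6.02 and 3.89 FPKM (-0.23, adjusted p = 0.555), and of Polr2e, shared by all nuclear RNA polymerases, at 66 and 56.2 FPKM against 72.0 and 70.4 FPKM (0.22, adjusted p = 0.350). Cd3eap lies 0.337 Mb from Apoe.

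Of 8 factors of the small subunit, 6 were below 0, with a median of -0.14, and 0 passed. Tsr1, a late assembly factor on chromosome 11 at 74898080 to 74909340, was at 18 and 19.3 FPKM in WT and 13.6 and 15.5 FPKM in Apoe-KO libraries. Both Apoe-KO values were below both WT values (log2 difference -0.34 ± 0.12 SE, 95% interval -0.63 to -0.04, adjusted p = 0.211). Utp20, a large protein of the early processing complex, was at 7.08 and 7.84 FPKM against 6.11 and 6.99 FPKM, and Rrp12, which acts in nuclear export of the subunits, at 7 and 6.82 FPKM against 6.69 and 5.35 FPKM. Neither overlapped between genotypes (-0.16 and -0.18). Utp15, of the complex that couples transcription to processing, was at 14.2 and 17.3 FPKM against 13.1 and 14.6 FPKM (-0.17). The late assembly factors Ltv1 (24.1 and 25.8 against 21.0 and 25.2 FPKM) and Bysl (11.5 and 10.7 against 10.7 and 9.54 FPKM) had differences of -0.11 and -0.12, with overlap. Nop14 (17.6 and 18.2 against 16.8 and 19.4 FPKM) and its binding partner Noc4l (19.6 and 19.0 against 21.3 and 18.7 FPKM) had differences of 0.01 and 0.05, the former -0.03 with one FPKM total.

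The 12 factors of the large subunit had a median difference of -0.025, with 7 below 0 and 0 at an unadjusted p under 0.05 by limma. Pes1, Bop1 and Wdr12 form one complex that is needed to process the large-subunit rRNA. Pes1 was at 23.0 and 23.4 FPKM in WT and 22.2 and 24.4 FPKM in Apoe-KO libraries, Bop1 at 29.2 and 26.2 FPKM against 28.1 and 29.1 FPKM, and Wdr12 at 7.87 and 9.59 FPKM against 8.55 and 9.40 FPKM. All 3 overlapped between genotypes, with log2 differences of 0.01, 0.05 and 0.04 (-0.04 for Pes1 and -0.003 for Wdr12 with one FPKM total), and the ratios of Pes1 and of Wdr12 to Bop1 overlapped too (0.789 and 0.895 against 0.790 and 0.841 for Pes1). Noc2l, which with Noc3l accompanies the large subunit towards the nucleoplasm, was at 45.4 and 43.8 FPKM against 40.7 and 41.1 FPKM, lower in both Apoe-KO libraries (-0.12, adjusted p = 0.527). Noc3l overlapped (9.23 and 11.6 against 8.99 and 9.75 FPKM, -0.13). Nop2, an rRNA methyltransferase, was at 18.2 and 17.3 FPKM against 17.2 and 16 FPKM and Nip7 at 14.2 and 14.0 FPKM against 13.6 and 13.5 FPKM. Neither overlapped, at differences of -0.09 and -0.05. Rrp1b was higher in both Apoe-KO libraries (9.81 and 9.89 against 10.9 and 10.7 FPKM, 0.12, adjusted p = 0.588). Wdr74 had the same direction with overlap (23.4 and 21.9 against 26.6 and 23.2 FPKM, 0.13). The assembly factors Ppan, Rrs1 and Nop16 had differences of -0.03, -0.03 and -0.02 at means of 26.7, 15.6 and 11.8 FPKM in WT cells.

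The 4 genes with an unadjusted p under 0.05, a share near that of all tested genes, have an annotated feature in common. Many snoRNAs, the guides of the box C/D and H/ACA particles, are cut from introns of genes that themselves serve ribosome production. In GENCODE M21 (GRCm38), 8 of the 40 genes hold a snoRNA gene inside them on the same strand: Nop56 (5 snoRNA genes), Nop58 (4), Gnl3, Ncl and Wdr43 (3 each), Tsr1 and Ppan (2 each) and Dkc1 (1). Of these 23 snoRNA genes, 22 do not touch an exon of a protein-coding transcript of the host. All 8 differences were below 0, with a median of -0.31, and Gnl3, Dkc1, Nop56 and Tsr1 are all among them. The other 32 genes had 20 differences below 0 and a median of -0.06. The 8 genes also shifted together between replicates. Their median of replicate 2 minus replicate 1 was 0.253 in WT and 0.275 in Apoe-KO libraries. For the other 32 genes it was -0.03 and 0.004. Their genotype median is thus not much larger in size than their replicate shift. Outside the 40 genes, 206 tested genes with a snoRNA gene inside had a median of -0.03 (lower to upper quartile -0.17 to 0.13), and 10414 without one had 0.00 (-0.16 to 0.17). The split was looked for after the members' values were seen, so it has no test. Whether reads of the snoRNAs entered the host genes' FPKM depends on the authors' gene models, not given in the sources used here.

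**Figure D3:**
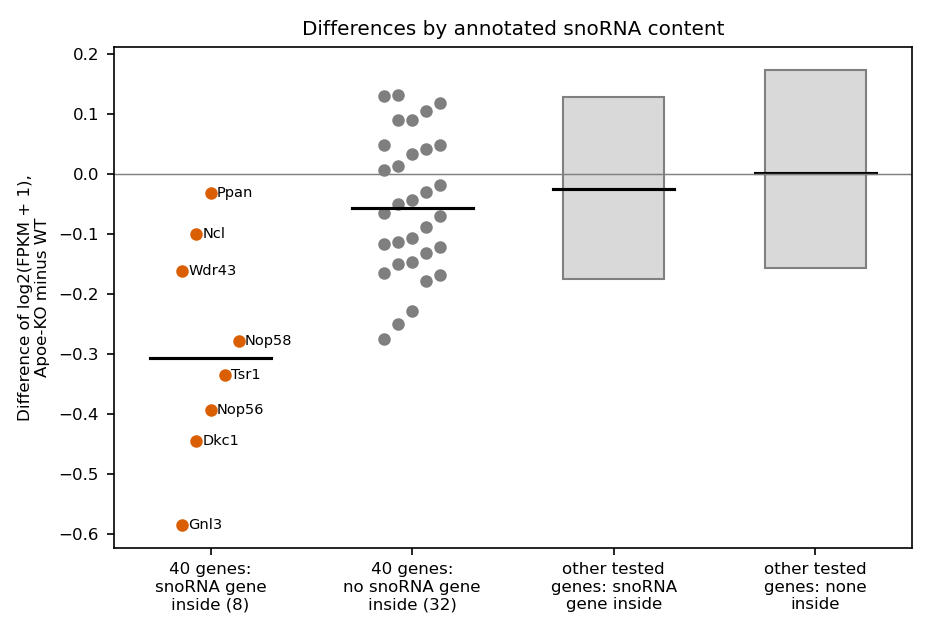
Difference of log2(FPKM + 1), Apoe-KO minus WT, for the 8 of the 40 genes that hold an annotated snoRNA gene and the 32 that do not (points, with the median as a line), beside the medians (lines) and quartiles (boxes) of the 206 and 10414 other tested genes with and without one. The 8 genes run from -0.58 (Gnl3) to -0.03 (Ppan), with a median of -0.31.

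Some named guides of 5 of these hosts are printed because they show what the genes carry besides their protein. The sequences are GENCODE M21 transcripts (GRCm38), written as DNA. Capitals mark the letters TGATG of box C within the first 25 bases and CTGA of box D within the last 25, read on the RNA strand only, or the ACA near the end of an H/ACA guide. Both boxes were found in 16 of the 23 snoRNA genes, against 23.6% of the 1558 annotated in the genome, many of which are of the H/ACA class. Not printed are the named guides Snord19 (in Gnl3), Snord57 (in Nop56) and Snord53 (in Wdr43), which did not have both boxes, and Snord92 (in Wdr43), which did. No match says only that these letters are not there.
Snord69 (in Gnl3, chr14:31014287-31014366, minus strand): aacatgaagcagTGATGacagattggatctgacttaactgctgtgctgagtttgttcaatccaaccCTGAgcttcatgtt
Snord110 (in Nop56, chr2:130275506-130275573, plus strand): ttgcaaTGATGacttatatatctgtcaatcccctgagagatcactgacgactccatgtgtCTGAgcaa
Snord91a (in Tsr1, chr11:74905424-74905516, plus strand): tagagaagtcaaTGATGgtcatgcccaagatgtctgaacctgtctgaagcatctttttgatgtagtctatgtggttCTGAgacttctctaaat
Snord11 (in Nop58, chr1:59704790-59704873, plus strand): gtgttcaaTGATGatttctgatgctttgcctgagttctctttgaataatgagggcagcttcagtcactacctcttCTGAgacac
Snord70 (in Nop58, chr1:59691934-59692020, plus strand): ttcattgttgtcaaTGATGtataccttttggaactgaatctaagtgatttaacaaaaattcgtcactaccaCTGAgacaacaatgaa
Snord82 (in Ncl, chr1:86356261-86356330, minus strand): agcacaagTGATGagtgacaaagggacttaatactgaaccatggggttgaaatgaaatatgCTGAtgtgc
Snora75 (in Ncl, chr1:86351169-86351301, minus strand): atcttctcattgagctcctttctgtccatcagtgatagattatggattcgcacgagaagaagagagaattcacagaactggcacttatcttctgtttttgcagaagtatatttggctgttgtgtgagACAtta

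MYC with MAX binds the E-box CACGTG, a hexamer that reads the same on both strands. RefSeq windows of 250 bases before to 50 after an annotated start (GRCm38.p6) were at hand for 34 of the 40 genes. Of these, 7 (20.6%) held CACGTG, against 12.1% of 8476 tested genes with windows. That start is not always the first base of the gene (for Nop56 it is not), and some genes have more than 1 window. The members with it are Mybbp1a, Wdr43, Utp20, Ltv1, Tsr1, Pes1 and Nop2. In 6 of the 7 the hexamer starts at bases 3 to 41 counted from the annotated start, and in Nop2 it starts at base -60. The 7 had a median difference of -0.11 and 0 passing, and the 27 without it a median of -0.05 and 0 passing. A match is a description and not a binding site. Up to 10 bases to each side are shown, to let the flanks be compared, with the hexamer in capitals.
Tsr1 (chr11:74898094-74898119, plus strand): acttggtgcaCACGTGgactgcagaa
Pes1 (chr11:3963967-3963992, plus strand): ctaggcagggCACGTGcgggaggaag
Ltv1 (chr10:13193094-13193119, minus strand): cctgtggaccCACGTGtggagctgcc
Wdr43 (chr17:71616222-71616247, plus strand): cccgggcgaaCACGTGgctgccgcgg
Utp20 (chr10:88826765-88826787, minus strand): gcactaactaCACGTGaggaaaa
Mybbp1a (chr11:72441357-72441376, plus strand): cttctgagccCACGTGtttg
Nop2 (chr6:125131813-125131838, plus strand): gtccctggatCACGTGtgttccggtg

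Other ribosome biogenesis genes gave a like picture of small differences. Of 98 further ribosome biogenesis factors, all tested, 0 passed by limma in either direction, where 0.948% of all tested genes were called higher and 0.885% lower. At an unadjusted p under 0.05, 6 were lower (6.12%, against 8.27% of all tested genes) and 2 higher (against 11.6%). The difference was below 0 for 65 (66.3%, against 50% of all tested genes), and the median was -0.085. Exosc10, the nuclear exosome nuclease that trims rRNA, was at 38.9 and 38.8 FPKM in WT and 29.9 and 30.0 FPKM in Apoe-KO libraries. These values did not overlap and the replicates nearly coincided (log2 difference -0.36 ± 0.10 SE, adjusted p = 0.131). Mdn1, a giant ATPase that remodels the large subunit, was at 13.7 and 15.4 FPKM against 10.4 and 12.0 FPKM (-0.35 ± 0.13 SE, adjusted p = 0.220).

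In the MYC network, MAX and its other partners compete for the same E-boxes, and MXD and MNT proteins repress there. Of 9 tested genes of the network 0 passed by limma, with 4 lower (8.27% of all tested genes were) and 1 higher (11.6%) at an unadjusted p under 0.05 and a median of -0.30. Mycl and Mycn were below the FPKM filter, and Mycn was listed at 0 in both Apoe-KO libraries. Mnt, a MAX-binding repressor, was at 23.6 and 19.4 FPKM in WT and 15.2 and 12.0 FPKM in Apoe-KO libraries, and Mxd1, another, at 10.9 and 13.0 FPKM against 8.41 and 8.05 FPKM. Both sets of values lay apart without overlap (log2 differences -0.62 ± 0.16 SE and -0.48 ± 0.13 SE, adjusted p = 0.127 and 0.131). Without Apoe-KO replicate 1 the difference of Mnt was -0.78 (adjusted p = 0.0317), and without Apoe-KO replicate 2 it was -0.47 (0.170).

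Of 24 MYC targets outside ribosome production, all tested, 0 passed by limma. At an unadjusted p under 0.05 there were 9 lower (8.27% of all tested genes were) and 1 higher (11.6%), 20 were below 0 and the median was -0.15. Hspd1, the mitochondrial chaperonin, was at 115 and 143 FPKM in WT and 64.4 and 79.0 FPKM in Apoe-KO libraries (log2 difference -0.84 ± 0.15 SE, adjusted p = 0.0755). It passed when each library was centred on its median (adjusted p = 0.0472), without Apoe-KO replicate 1 (0.0442) or without Apoe-KO replicate 2 (0.00296), but not without WT replicate 1 (0.0574) or WT replicate 2 (0.208). Tfrc, the transferrin receptor, was at 18.1 and 27.3 FPKM against 12.4 and 17.3 FPKM, without overlap but with replicates far apart (-0.57 ± 0.24 SE, adjusted p = 0.274). The difference of Tfrc was -0.79 without Apoe-KO replicate 2 (adjusted p = 0.0441) and -0.85 without WT replicate 1 (0.165), but -0.34 without Apoe-KO replicate 1 (0.554) and -0.28 without WT replicate 2 (0.789). Proliferation genes summed to 769 and 849 FPKM in WT and 617 and 698 FPKM in Apoe-KO libraries, and their part in the values of the MYC targets was not tested.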

How the data were processed

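Total RNA was extracted from Tfh cells with a mirVana kit and sequenced, per the labels' protocols. The submitters' processing notes name the build mm10 and, without order or role, Cuffdiff 2.2.0, TopHat2 2.0.13 and CASAVA 1.8.2; annotation, strand setting and filters were not given in the sources used here. The deposited values are FPKM per gene symbol, scaled by the authors, with no counts, so read depth is unknown and no count test or counting interval was possible. Genes listed without strand information may share reads with overlapping genes or pseudogenes.

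From these values, log2(FPKM + 1) of the 11187 genes whose mean FPKM reached 1 was compared between 2 WT and 2 Apoe-KO libraries with limma 3.58.1 (R 4.3.3), with a mean-variance trend and Benjamini-Hochberg adjustment over all tested genes at a threshold of 0.05. Differences are on that log2 scale, which understates the change of low genes. The procedure was run on simulated data with independent noise and log2 changes of 1 or more. How it handles smaller differences, or shifts shared by libraries of the same replicate number, was not examined. Older symbols were used for 3 polymerase subunits, 4 of the further ribosome biogenesis factors, 1 plasma cell marker and 1 macrophage marker. Positions and promoter windows came from RefSeq GRCm38.p6 and snoRNA genes from GENCODE M21. All 40 genes were described; outside them, the 2 genes with the largest difference in each related list were named where none passed. The members and lists were chosen with earlier results of these data known. Alternatives were another pseudocount, other filters, other scalings, no trend, each library left out, and a replicate block.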

Additional observations from a re-analysis of the deposited data

How the results depend on the processing

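The 0 calls among the 40 genes held with a pseudocount of 0.1, without the filter, with a mean FPKM of 5 or more, with either scaling and without the trend, and leaving out each library gave 0 to 1 lower (Gnl3). Over all genes, 106 higher and 99 lower calls became 35 and 41 without the filter and 51 higher with a mean FPKM of 5 or more, and ran from 54 to 317 higher and 61 to 301 lower leaving out each library. The labels do not say that a replicate number marks a shared animal or day, and 2 pairs are too few to settle it, so the numbers are not taken as pairs. The libraries do hint at a link: deviations from the group means correlated at 0.214 between same-numbered libraries, and replicate 2 differed from replicate 1 in the same direction in both genotypes for 77.5% of tested genes and 30 of the 40. The replicate shift, averaged over the genotypes, exceeded the genotype difference in size for 22 of the 40 genes and 45.6% of tested genes. A fit with the replicate block called 1908 of the 11187 tested genes higher and 1776 lower, so calls were frequent throughout. Of the 40 genes it called 0 higher and 10 lower (Myc, at -0.276 and limma adjusted p = 0.0173, Npm1, Nolc1, Gnl3, Ddx21, Nop56, Nop58, Dkc1, Nhp2 and Tsr1). Of the 98 further factors it called 4 higher and 15 lower. In both lists lower calls outnumbered higher ones, which was not so over all tested genes. Among genes named from the other lists it also called Exosc10 (adjusted p = 0.00704), Mdn1 (0.0153), Mnt (0.00352), Mxd1 (0.0184), Hspd1 (0.000809), Tfrc (0.00509) and Polr2e (0.0422). With one FPKM total per library the median of the 40 was -0.141 and the differences of Polr1b (-0.01), Nop14 (-0.033), Pes1 (-0.04) and Wdr12 (-0.003) turned below 0. Leaving out each library, the median of the 98 further factors ran from -0.145 to -0.003, and differences that crossed 0 ran from -0.255 to 0.054 for Ncl, -0.334 to 0.031 for Npm1, -0.39 to 0.067 for Wdr43, -0.204 to 0.115 for Rrp9, -0.04 to 0.22 for Gar1, -0.049 to 0.114 for Polr1b, -0.085 to 0.11 for Nop14, -0.043 to 0.138 for Noc4l, -0.238 to 0.011 for Ltv1, -0.027 to 0.123 for Bop1, -0.06 to 0.071 for Pes1, -0.087 to 0.168 for Wdr12, -0.162 to 0.125 for Nop16, -0.131 to 0.065 for Ppan, -0.285 to 0.018 for Noc3l and -0.492 to 0.029 for Cd3eap. Where a fit left 1 library in a group, the lone library was taken to vary as those of the other group do. The cause of these shifts was not tested. Read depth is unknown, so what depth limits cannot be given.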
